A study of Mus musculus with 23 samples.

Results

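Excitation of the striatum arrives as glutamate, released onto the dendritic spines of medium spiny neurons (MSNs) by cortical and thalamic axons. AMPA receptors carry the fast current, NMDA receptors admit calcium and open only when the membrane is already depolarized, kainate receptors modulate transmission, and metabotropic receptors signal through G proteins. Beneath the membrane, MAGUK proteins such as PSD-95 (DLG4) hold the receptors, SAPAP proteins (DLGAP) bind MAGUKs to SHANK, and HOMER joins SHANK to metabotropic receptors, while the transmembrane AMPA receptor regulatory proteins (TARPs) of the CACNG family traffic AMPA receptors to that scaffold. Changes at these synapses are a long-standing subject of research on LDOPA-induced dyskinesia.

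The probes described here target the genes of these receptors and scaffolds. They were chosen by gene name from the array's own annotation: subunits of ionotropic glutamate receptors, among them the AMPA (GRIA), kainate (GRIK) and NMDA (GRIN) receptors, the metabotropic receptors (GRM), CACNG2 to CACNG8, DLG1 to DLG4, DLGAP1 to DLGAP4, SHANK1 to SHANK3 and HOMER1 to HOMER3. This took 97 of the 45281 probes and 46 genes. HOMER3 had no probe.

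RNA came from the dopamine-depleted striatum of mice that express EGFP-tagged ribosomal protein L10a from a bacterial artificial chromosome (Bac), under the DRD1A promoter for direct pathway MSNs or the DRD2 promoter for indirect pathway MSNs, so that tagged ribosomes with their RNA could be purified (TRAP). All mice were C57BL/6J/Swiss-Webster, 71 days old, carried a unilateral 6-OHDA lesion made at 35 days and received LDOPA (6 mg/kg with 15 mg/kg benserazide) on day 22, 40 min before death. The chronic LDOPA groups had received 2 doses a day of that mixture for the preceding 21 days and the acute LDOPA groups had received saline. There were 7 arrays of DRD1A acute LDOPA, 8 of DRD1A chronic LDOPA, 4 of DRD2 acute LDOPA and 4 of DRD2 chronic LDOPA, grouped by the labels, which give 1 array for each sample. The study's text gives other sizes for DRD1A chronic and DRD2 acute LDOPA. The DRD2 promoter is also active in cholinergic interneurons, and TRAP yields ribosome-bound RNA as a pool: fewer cells of a type and less RNA per cell cannot be told apart.

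Values are quantile normalized log2 signals, which serve to compare groups at a probe and not probes with each other. Between 13114 and 17443 probes per array were detected, at a detection p under 0.05 against the negative controls, and between 44 and 64 of the 97 member probes. Arrays 1D and 3A of DRD2 chronic LDOPA (BeadChips 1 and 3) correlated at 0.990, against 0.927 for the next of 253 pairs, and were averaged as 1 sample, since they may be of 1 RNA, leaving 3 samples in that group and 22 in all. The labelled lines differed as named in the receptor itself: DRD2 had a log2 signal of 11.25 ± 0.18 (SD, n = 4) and 10.72 ± 0.67 (SD, n = 3) in the acute and chronic DRD2 groups, against 7.43 ± 0.21 (SD, n = 7) and 7.38 ± 0.18 (SD, n = 8) in the DRD1A groups. DRD1A itself had 9.38 ± 0.51 (SD, n = 7) and 9.20 ± 0.80 (SD, n = 8) in the acute and chronic DRD1A groups, against 7.67 ± 0.51 (SD, n = 4) and 8.30 ± 1.10 (SD, n = 3) in the DRD2 groups. Its difference between the lines was 1.72 after acute LDOPA (adjusted p = 0.132) and 0.91 after chronic LDOPA (adjusted p = 0.857). The summed signal of 8 direct pathway markers varied within DRD2, at 3379 to 8890 (array 4E) after acute and 5737 to 8115 after chronic LDOPA. In DRD1A it was 11623 to 17685 and 15131 to 21323. PDYN, among these markers, was higher after chronic LDOPA by 2.45 in DRD2 (adjusted p = 0.0308) and 1.41 in DRD1A (adjusted p = 0.0388). The part of direct pathway RNA in the DRD2 values was not tested. Markers of other cells were present too. Of the 9 cortical excitatory neuron markers on the array 3 were detected on all 23 arrays, and of the 8 astrocyte markers 3. Array 1A of DRD2 chronic LDOPA had the highest summed astrocyte signal of all 23, 6076.

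Detection set what could be measured, and it differed by family. The 4 MAGUK genes were each detected on all 23 arrays by their single probe, as were 9 of 14 AMPA probes, 4 of 5 HOMER probes and 4 of 14 SAPAP probes. Of the 11 NMDA receptor probes none was detected on all 23 arrays. Of 12 kainate probes 1 was (GRIK2), of 16 metabotropic probes 3 (2 of GRM5 and 1 of GRM7), of 6 SHANK probes 1 (SHANK1), and of 10 CACNG probes none. In total 26 probes of 15 genes were detected on every array and 12 probes on none. The tests took the 83 probes of 39 genes that lay above the 20th percentile on every array of at least 1 group. The genes with no probe among them included CACNG2 (stargazin), CACNG6, GRIN2D, GRM4, GRM6 and GRM8, which are not tested here. GRIN2A, the NMDA subunit that increases through development, was tested by a probe detected on 1 array only. Its mean was 7.04 ± 0.08 (SD, n = 7) and 7.06 ± 0.07 (SD, n = 8) in the acute and chronic DRD1A groups. In the same order it was 7.05 ± 0.08 (SD, n = 4) and 7.12 ± 0.07 (SD, n = 3) for DRD2. At this level a decrease could not have been detected, and an increase only if it rose above background.

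**Figure D1:**
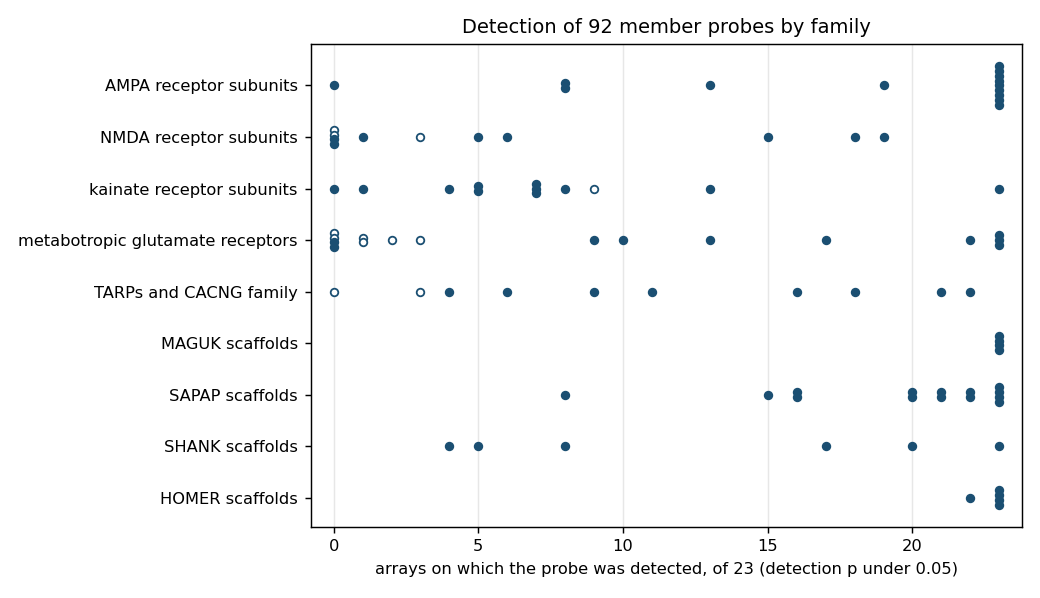
Number of arrays, of 23, on which each of 92 member probes was detected (x axis), by family (y axis). Each point is a probe, filled where it entered the tests (80 probes) and open where it did not (12 probes). MAGUK and HOMER probes lie at the right, with most AMPA probes, and most NMDA and kainate receptor probes lie under 12 arrays.

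No member passed the test in any comparison. The limma F test over the 4 groups called 0 of 83 member probes at an adjusted p under 0.05, against 0.295% of all 32255 probes tested, and the smallest adjusted p of a member was 0.192 (CACNG3). At an unadjusted p under 0.05 there were 16 member probes, 19.3%, against 10% of all probes. For members detected on all arrays the median distance from the estimate to the end of its 95% interval was 0.59 and 0.63 on the log2 scale where the lines were compared after acute and chronic LDOPA, and 0.48 and 0.71 where treatments were compared in DRD1A and DRD2. This distance differed by probe, from 0.38 to 0.97 for the lines after acute LDOPA. A difference smaller than its own distance could not be told from 0, even without adjustment. The values that follow describe which members stood farthest from 0 and how their samples lay.

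The comparison of DRD1A with DRD2 after acute LDOPA sets the direct against the indirect pathway at a matched single dose. It called 0 of 83 member probes, against 0.158% of all probes. An unadjusted p under 0.05 was reached by 5 members, 6.02% against 9.11% of all probes, and each of the 5 was lower in DRD1A (5.34% of all probes were lower at that p). Leaving out single arrays gave 3 members at this p without DRD1A acute LDOPA replicate 7, 8 without DRD2 acute LDOPA replicate 1 and 9 without DRD2 acute LDOPA replicate 3. The direction was the same across much of the set, with 62 of 83 members (74.7%) lower in DRD1A, against 53.2% of all probes, and a median difference of -0.10 against -0.01. Without DRD2 acute LDOPA replicate 2 the share was 65.1%, against 51.6% of all probes, and the member median -0.06. At an unadjusted p under 0.05, 2 members were then higher and 5 lower. With the BeadChip as a fixed block 1 was higher and 4 lower. Among the 26 members detected on all arrays, 23 (88.5%) were lower in DRD1A, against 46.3% of the 6333 probes of the array so detected. All 9 such AMPA probes, from GRIA1, GRIA2 and GRIA3, were among them, also with median centering or normexp background correction in place of the quantile normalization alone.

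DLG2 encodes PSD-93, a MAGUK that anchors NMDA receptors. Its log2 signal was 7.48, 7.72 and 7.99 (lowest, median and highest of 7 samples) in DRD1A acute LDOPA and 7.95, 8.64, 8.75 and 9.24 in the 4 samples of DRD2 acute LDOPA. A single DRD2 sample, 3F, lay within the DRD1A range and the other 3 above it. The difference, DRD1A minus DRD2, was -0.90 ± 0.27 (SE, 95% interval -1.46 to -0.33, unadjusted p = 0.00344, adjusted p = 0.251), and it had the same sign on each of the 3 BeadChips that held both groups, from -1.26 to -0.47.

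The SAPAP scaffold DLGAP4 was read by probe 990754 at 7.23, 7.41 and 7.64 (lowest, median and highest) in DRD1A and at 7.75, 7.84, 7.86 and 8.36 in DRD2. Every DRD1A sample lay below every DRD2 sample, the only member probe of 83 for which these groups did not overlap (1.2%, against 1.49% of all probes). The difference was -0.55 ± 0.20 (SE, 95% interval -0.97 to -0.13, unadjusted p = 0.0136, adjusted p = 0.388), and it ranged from -0.67 to -0.11 within BeadChips. With the BeadChip as a fixed block in the fit it was -0.44 (unadjusted p = 0.0821), and with normexp background correction -1.37. The other 4 DLGAP4 probes differed by -0.10 to -0.03.

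GRIA3, an AMPA receptor subunit, was brightest at probe 6980187. That probe gave 9.54, 10.21 and 10.53 (lowest, median and highest) in DRD1A and 10.39, 10.41, 10.47 and 11.00 in DRD2, with overlapping groups and 1 high DRD2 sample. The difference was -0.47 ± 0.21 (SE, 95% interval -0.91 to -0.03, unadjusted p = 0.037, adjusted p = 0.507). GRIA3 had 4 tested probes, and the others differed by -0.51, -0.33 and 0.001, the last a probe detected on 19 arrays.

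GRM5, the metabotropic receptor coupled to Gq that is abundant in MSNs, had 10.40, 10.48 and 10.96 (lowest, median and highest) in DRD1A and 10.52, 11.07, 11.09 and 11.35 in DRD2 at probe 7380440. In DRD2, 3 samples lay above every DRD1A sample and 1 lay within their range. The difference was -0.38 ± 0.18 (SE, 95% interval -0.76 to -0.003, unadjusted p = 0.0483, adjusted p = 0.542). Another GRM5 probe detected on all arrays, 5080196, had an estimate of the opposite sign, 0.19 (95% interval -0.78 to 1.16). With the BeadChip block the first GRM5 probe differed by -0.29 (unadjusted p = 0.22). CACNG7, a TARP that binds AMPA receptors in brain, was the fifth member, at -0.35 ± 0.14 (SE, unadjusted p = 0.022, adjusted p = 0.448).

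Several reference members of the synapse had estimates from -0.58 to 0.19, some of them near 0. Their intervals included 0 and leave room for moderate differences. DLG4 (PSD-95) differed by -0.01 (95% interval -0.47 to 0.45), SHANK3 by -0.02 (95% interval -0.69 to 0.65) and DLGAP3, a SAPAP enriched in striatum, by -0.10 (95% interval -0.33 to 0.14). HOMER1, which links GRM5 to SHANK, differed by -0.58 (95% interval -1.21 to 0.05) at its brightest probe. GRIN2B, an NMDA subunit, differed by -0.37 (95% interval -0.85 to 0.11) and GRIK2, a kainate subunit, by 0.19 (95% interval -0.70 to 1.08).

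Markers of cells moved with this comparison. General MSN markers had a median difference of -0.59 (DRD1A minus DRD2), with 5 of 9 tested at an unadjusted p under 0.05 and all 5 lower in DRD1A. Their summed signal was 11862 to 17302 in DRD1A acute and 18523 to 23308 in DRD2 acute LDOPA. Cortical excitatory neuron markers had a median difference of 0.53, with 3 of 8 tested at an unadjusted p under 0.05, all higher in DRD1A, and a summed signal of 3150 to 5366 against 1608 to 2810. Oligodendrocyte markers had a median difference of -0.65, with 2 of 8 tested at that p, both lower in DRD1A, and a summed signal of 3724 to 9189 against 6605 to 10469. Among them MBP, a myelin protein, differed by -1.39 (adjusted p = 0.353). GABAergic interneuron markers had a median difference of 0.48, with 2 of 6 tested at that p, both higher in DRD1A, and a summed signal of 1670 to 2243 against 1276 to 1765. Of 4 cholinergic interneuron markers tested 0 were detected on all 23 arrays. CHAT was lower in DRD1A at that p, by -0.33 (adjusted p = 0.516), and the list median was -0.02. CHAT was detected on 4 of 23 arrays, 2 of them DRD2 acute, a group in which it had 7.44 ± 0.57 (SD, n = 4). The part of these shifts in the lower member signals was not tested.

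**Figure D2:**
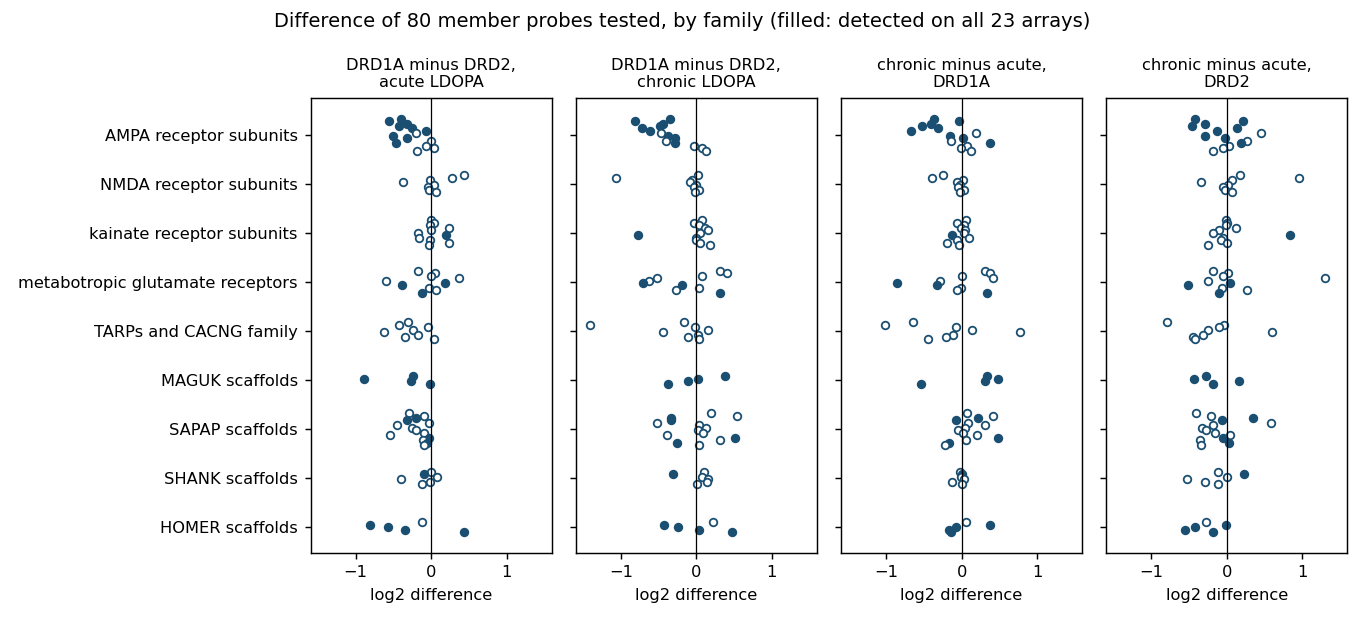
Log2 difference (x axis) of each of 80 member probes tested, by family (y axis), in the 4 pairwise comparisons (panels). Points are probes, filled where detected on all 23 arrays. After acute LDOPA 23 of the 26 filled points lie left of 0, and after chronic LDOPA 20 of 26 do.

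After chronic LDOPA the same contrast of lines, in other mice, called 0 of 83 members, against 0.0279% of all probes. At an unadjusted p under 0.05 stood 6 members, 7.23% against 6.14% of all probes, each with a lower estimate in DRD1A (3.67% of all probes were lower at that p). Over all 83 members 44 (53%) were lower in DRD1A, against 46.8% of all probes. Among the 26 detected on all arrays 20 (76.9%) were lower, against 48.4% of such probes, and again all 9 AMPA probes were, with a median of -0.44, or -0.32 with median centering.

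CACNG3 (the TARP gamma-3) had the member estimate farthest from 0. Probe 6980228 gave 7.07, 7.79 and 8.57 (lowest, median and highest of 8) in DRD1A chronic LDOPA and 8.69, 9.49 and 9.69 in the 3 samples of DRD2 chronic LDOPA. All 8 DRD1A samples lay below all 3 DRD2 samples. The difference was -1.41 ± 0.44 (SE, 95% interval -2.33 to -0.49, unadjusted p = 0.00444, adjusted p = 0.464), a signal 2.66 times lower in DRD1A, and it was -1.40 and -1.87 on the 2 BeadChips that held both groups. With normexp background correction it was -2.33. The other CACNG3 probe, 2850066, differed by -0.16 (95% interval -0.76 to 0.44).

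GRIN1 encodes the obligatory NMDA receptor subunit. Probe 4570161 gave 7.03, 7.26 and 8.23 (lowest, median and highest) in DRD1A chronic and 8.10, 8.59 and 8.76 in DRD2 chronic LDOPA. A single DRD1A sample lay among the DRD2 values and 7 lay below them. The difference was -1.07 ± 0.29 (SE, 95% interval -1.68 to -0.47, unadjusted p = 0.00148, adjusted p = 0.318). With the BeadChip as a fixed block it was -1.39 (unadjusted p = 4.28e-05, adjusted p = 0.13), and within the 2 BeadChips -1.41 and -1.02. With normexp background correction it was -2.37. GRIN1's other tested probe, 4210041, detected on 15 arrays, differed by 0.01 (95% interval -0.90 to 0.93).

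The AMPA subunit GRIA2, which makes the receptor impermeable to calcium, had 9.37, 10.11 and 10.41 (lowest, median and highest) in DRD1A and 10.68, 10.77 and 10.80 in DRD2 at probe 450204. The groups did not overlap, which held for 2 of 83 members in this comparison (2.41%, against 1.72% of all probes), this probe and CACNG3. The difference was -0.72 ± 0.21 (SE, 95% interval -1.16 to -0.27, unadjusted p = 0.00315, adjusted p = 0.407). Probe 2470403 of GRIA2 differed by -0.61 (95% interval -1.50 to 0.27) and probe 3460241 by -0.47 (95% interval -0.97 to 0.02).

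GRIA1, the AMPA subunit inserted on synaptic potentiation, had 9.43, 10.66 and 11.21 (lowest, median and highest) in DRD1A and 11.18, 11.40 and 11.59 in DRD2 at its brightest probe, 4210703. A single DRD1A sample lay above the lowest DRD2 sample, and 7 lay below all 3. The difference was -0.81 ± 0.34 (SE, 95% interval -1.52 to -0.11, unadjusted p = 0.0263, adjusted p = 0.715), and without DRD1A chronic LDOPA replicate 7 (array 4D), the lowest sample, it was -0.65. With the BeadChip block it was -0.67 (unadjusted p = 0.0849). The other 3 GRIA1 probes differed by -0.36, -0.44 and -0.48. The other members at an unadjusted p under 0.05 were a GRIA3 probe (6900706), at -0.41 ± 0.16 (SE, unadjusted p = 0.0166, adjusted p = 0.651), and a GRM7 probe (2690343), at -0.27 ± 0.09 (SE, unadjusted p = 0.00692, adjusted p = 0.519), detected on 19 and 10 arrays.

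General MSN markers again had a negative median, -0.38, with 4 of 9 tested at an unadjusted p under 0.05, all lower in DRD1A. The summed MSN signal was 12116 to 19942 in DRD1A chronic and 17628 to 22430 in DRD2 chronic LDOPA, which overlapped. Oligodendrocyte markers had a median difference of -0.49, with 1 of 8 tested at that p, lower in DRD1A, and a summed signal of 3615 to 11038 against 4752 to 15361. Cortical excitatory neuron markers had a median of 0.38, with 2 of 8 at that p, both higher in DRD1A, and GABAergic interneuron markers 0.35, with 1 of 6, higher in DRD1A. Of 4 cholinergic interneuron markers tested 0 stood at that p, with a list median of 0.06. Of 6 microglia markers tested 2 were lower in DRD1A at that p, with a list median of -0.06. The part of these shifts in the lower AMPA signals was not tested.

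**Figure D3:**
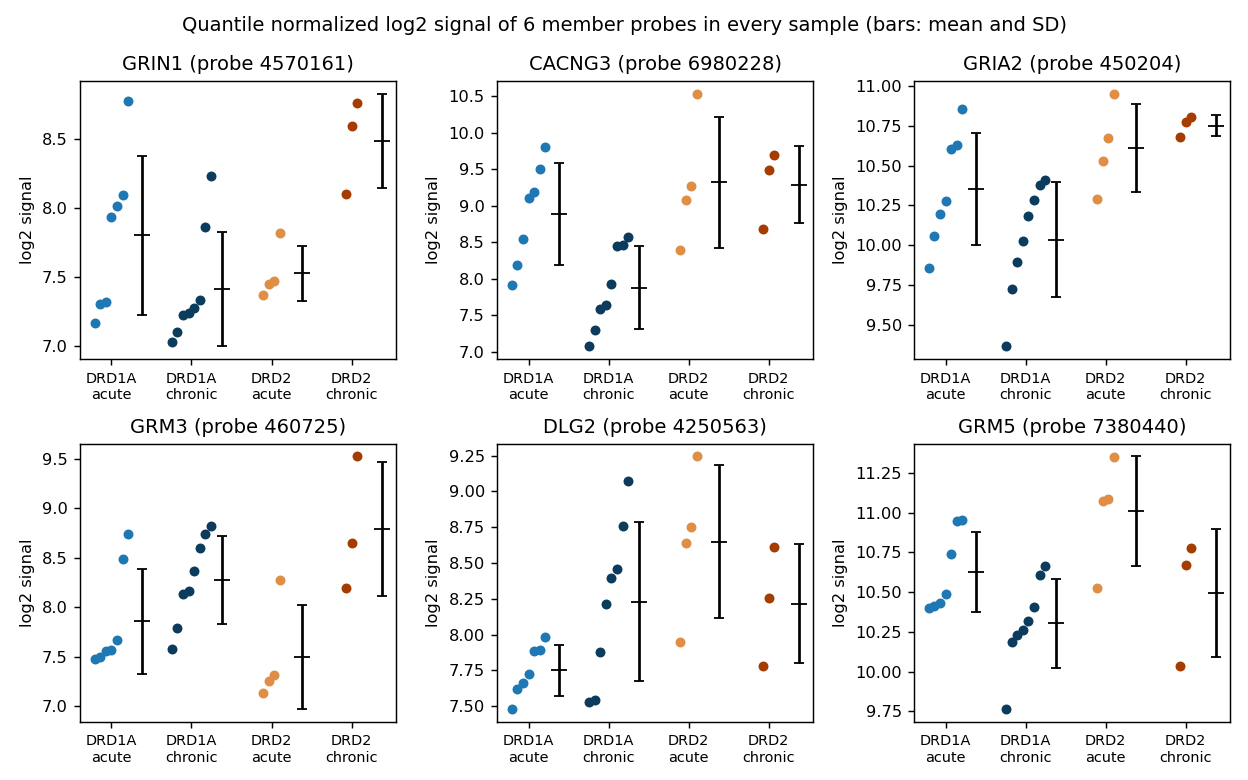
Quantile normalized log2 signal (y axis) of 6 member probes in each of the 22 samples, by group (x axis). Points are samples and the bar beside each group is its mean with the SD. GRIN1 in the 3 DRD2 chronic samples lies above all 4 DRD2 acute samples, and CACNG3 and GRIA2 in DRD2 chronic lie above all 8 DRD1A chronic samples.

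Within the DRD1A line, chronic LDOPA was compared with acute LDOPA to ask what repeated treatment adds in the direct pathway. It called 0 of 83 members, against 0.0341% of all probes. At an unadjusted p under 0.05 were 13 members, 15.7% against 7.8% of all probes. Of these, 10 were lower after chronic LDOPA (12%, against 4.11% of all probes) and 3 higher (3.61%, against 3.69%). Among the 10 were probes of the AMPA receptor (3 of GRIA1), its TARPs (2 of CACNG3 and 1 of CACNG8), GRM5 (2 probes) and DLG4, and the 3 came from DLG2, DLGAP4 and GRIA3. No member's groups separated fully, against 0.136% of all probes. The groups were not spread over the BeadChips alike: DRD1A acute LDOPA had 4 of its 7 arrays on BeadChip 1 and DRD1A chronic none, and without BeadChip 1 there were 9 members, 6 lower and 3 higher. The balance of directions also depended on the scaling: with median centering in place of quantile normalization 12 members stood at this p, 4 lower and 8 higher, and of the 26 members detected on all arrays 7 were lower in place of 16. All probes moved as well: 39.6% were lower with median centering and 48.5% with quantile normalization, against 41% and 54.2% of the 83 members. The share of all probes at this p was not counted under the alternatives. Of the TARP, AMPA, GRM5 and DLG4 probes named, the 2 of CACNG3 and that of CACNG8 were lower at this p under both scalings and the others were not. Leaving out single arrays gave 6 members without DRD1A acute LDOPA replicate 1, 8 without replicate 4 and 5 without replicate 6 of that group, and 6 without each of DRD1A chronic LDOPA replicates 4 and 7.

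CACNG3 had negative estimates at both of its probes. Probe 6980228 gave 7.91, 9.11 and 9.80 (lowest, median and highest of 7) after acute and 7.07, 7.79 and 8.57 (of 8) after chronic LDOPA. The difference, chronic minus acute, was -1.02 ± 0.34 (SE, 95% interval -1.72 to -0.31, unadjusted p = 0.00686, adjusted p = 0.401). On BeadChips 2, 3 and 4 it was -1.93, 0.02 and -0.73, so the direction was not shared by BeadChip 3. Probe 2850066 gave 7.44, 7.96 and 8.98 and 7.10, 7.47 and 7.83, with a difference of -0.65 ± 0.22 (SE, 95% interval -1.10 to -0.19, unadjusted p = 0.00821, adjusted p = 0.423) that was negative on all 3 BeadChips, from -1.63 to -0.11.

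CACNG8 (gamma-8), another TARP, was near the limit of detection. It was detected in 6 of 7 DRD1A acute and 1 of 8 DRD1A chronic samples, at 7.14, 7.50 and 8.10 against 6.96, 7.09 and 7.24 (lowest, median and highest). In 6 of 7 acute samples the signal lay above every chronic sample. The difference was -0.44 ± 0.15 (SE, 95% interval -0.74 to -0.14, unadjusted p = 0.00683, adjusted p = 0.4), and the highest acute value came from array 2D.

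DLG4, the PSD-95 scaffold that binds TARPs and NMDA subunits, had 9.48, 9.63 and 10.07 (lowest, median and highest) after acute and 8.49, 9.20 and 9.84 after chronic LDOPA. The groups overlapped, with the chronic samples spread more widely. The difference was -0.54 ± 0.18 (SE, 95% interval -0.93 to -0.16, unadjusted p = 0.00768, adjusted p = 0.413), negative on all 3 BeadChips, from -0.96 to -0.22. With median centering it was -0.19 (unadjusted p = 0.394).

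GRM5 had negative estimates at all 3 of its probes, and 2 had an unadjusted p under 0.05. Probe 7380440 gave 10.40, 10.48 and 10.96 (lowest, median and highest) after acute and 9.76, 10.29 and 10.66 after chronic LDOPA, a difference of -0.32 ± 0.15 (SE, 95% interval -0.63 to -0.008, unadjusted p = 0.0451, adjusted p = 0.63). Probe 5080196 gave 9.06, 9.32 and 9.83 and 7.48, 8.19 and 10.21, a difference of -0.85 ± 0.38 (SE, 95% interval -1.65 to -0.05, unadjusted p = 0.0378, adjusted p = 0.613). Its chronic samples spanned more than 2 log2 units and the acute samples less than 1, and with the BeadChip block its difference of -0.85 had an unadjusted p of 0.104. With median centering the first of these probes differed by 0.11 in the other direction. GRIA1 had an unadjusted p under 0.05 at 3 of 4 probes, with differences of -0.37, -0.41 and -0.52, while its brightest probe differed by -0.03 (95% interval -0.57 to 0.51), or by 0.42 with median centering.

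DLG2 stood on the other side, with 7.48, 7.72 and 7.99 (lowest, median and highest) after acute and 7.53, 8.30 and 9.07 after chronic LDOPA. The median chronic sample lay above every acute sample while 3 chronic samples lay within the acute range. The difference was 0.48 ± 0.22 (SE, 95% interval 0.02 to 0.95, unadjusted p = 0.043, adjusted p = 0.625). For GRIA3 at probe 6980187 the values were 9.54, 10.21 and 10.53 and 9.86, 10.55 and 10.99 and the difference 0.37 ± 0.17 (SE, 95% interval 0.008 to 0.73, unadjusted p = 0.0459, adjusted p = 0.631). Median centering of the arrays in place of quantile normalization gave this GRIA3 probe a difference of 0.81 and an adjusted p of 0.0253, the only member probe called under any setting tried. With the BeadChip block the DLG2 difference was 0.38 (unadjusted p = 0.179). BeadChip 1 carried a lower background, with a lowest signal per array of 65.1 to 70.3 against 94 to 121.6 on the other BeadChips. DLGAP4 at probe 1580711 differed by 0.48 ± 0.23 (SE, unadjusted p = 0.0497, adjusted p = 0.639), or by 0.32 without DRD1A chronic LDOPA replicate 5, and the other 4 DLGAP4 probes differed by -0.21 to 0.20.

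Members that did not reach an unadjusted p of 0.05 in this line included GRIA2 at -0.32 (95% interval -0.66 to 0.02), HOMER1 at -0.08 (95% interval -0.60 to 0.44), SHANK3 at -0.12 (95% interval -0.67 to 0.43), DLGAP3 at 0.03 (95% interval -0.17 to 0.22), GRIN2B at -0.06 (95% interval -0.45 to 0.34), GRIK2 at -0.12 (95% interval -0.86 to 0.61) and GRIN1 at -0.39 (95% interval -0.85 to 0.08). The interval was narrowest for DLGAP3, whose single probe was detected on 16 of 23 arrays, and widest for GRIK2.

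**Figure D4:**
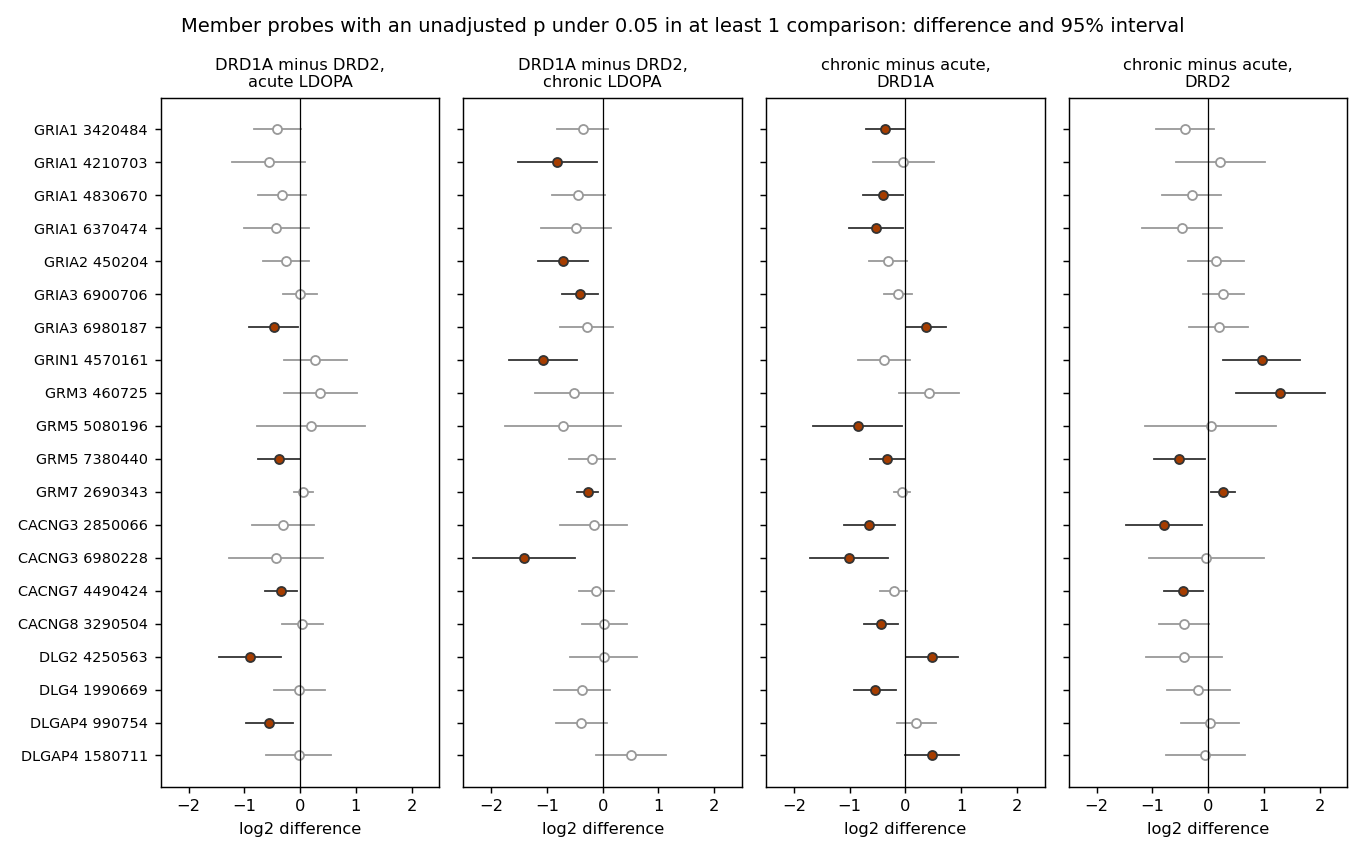
Log2 difference with its 95% interval (x axis) for 20 member probes, of 13 genes (y axis), that had an unadjusted p under 0.05 in at least 1 of 5 comparisons (the interaction included), in the 4 pairwise comparisons (panels). Filled points have an unadjusted p under 0.05 in that panel, and no point has an adjusted p under 0.05. In DRD1A most filled points lie left of 0, a balance that median centering turned, and in DRD2 3 of 6 do.

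The comparison of chronic with acute LDOPA in the DRD2 line rested on 3 against 4 samples. It called 0 of 83 members, against 0.0031% of all probes. At an unadjusted p under 0.05 were 6 members (7.23%, against 6.28% of all probes), 3 higher (2.97% of all probes) and 3 lower (3.31%) after chronic LDOPA. The groups did not overlap for 5 members (6.02%, against 6.9% of all probes): GRIN1 was above (3.28% of all probes were), and DLG1, a DLGAP1 probe, a GRIA4 probe detected on no array and GRIK5 were below (3.62% of all probes were). Over all 83 members 56 (67.5%) were lower after chronic LDOPA, against 54.3% of all probes, and with median centering 47 (56.6%), against 44.6%. With median centering 5 members stood at this p, all higher, and without BeadChip 1 there were 3, all higher. The share of all probes at this p was not counted under these settings.

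GRM3, a Gi-coupled metabotropic receptor of neurons and glia, had the estimate farthest from 0. Its log2 signal was 7.13, 7.25, 7.32 and 8.27 in the 4 acute and 8.19, 8.65 and 9.53 in the 3 chronic samples. A single acute sample, 2C, lay among the chronic values, and the other 3 lay below all of them. The difference was 1.30 ± 0.38 (SE, 95% interval 0.50 to 2.09, unadjusted p = 0.00292, adjusted p = 0.608), a signal 2.46 times higher, and it was 2.39 and 1.40 on the 2 BeadChips that held both groups. Without array 1A (DRD2 chronic LDOPA replicate 1) it was 1.59, and with normexp background correction 2.61. Astrocytes express GRM3, and of the 8 astrocyte markers tested GJA1, which encodes connexin 43, had a difference of 0.95 (unadjusted p = 0.0214, adjusted p = 0.734) and was the only one at an unadjusted p under 0.05. The 8 had a median difference of 0.18. The glutamate transporters SLC1A2 and SLC1A3 differed by 0.74 and 0.72, GFAP, an astrocyte filament, by 0.12, and AQP4 and S100B by -0.03 each. The summed astrocyte signal was 2344 to 3142 in DRD2 acute and 2669 to 6076 in DRD2 chronic LDOPA, with array 1A at 6076, 1D at 4768, 3A at 4401 and 4A at 2669. The part of astrocyte RNA in the GRM3 difference was not tested.

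GRIN1 had 7.37, 7.45, 7.47 and 7.82 after acute and 8.10, 8.59 and 8.76 after chronic LDOPA at probe 4570161. Every chronic sample lay above every acute sample. The difference was 0.96 ± 0.33 (SE, 95% interval 0.28 to 1.64, unadjusted p = 0.00835, adjusted p = 0.664), and 0.76 and 1.39 on the 2 BeadChips. With normexp background correction it was 1.89. Probe 4210041 differed by 0.18 (95% interval -0.85 to 1.20), a span that includes both 0 and the value of the first probe. GRM7, a presynaptic metabotropic receptor, had 7.08, 7.13, 7.13 and 7.38 and 7.14, 7.47 and 7.73 at probe 2690343, detected on 10 arrays. The difference was 0.27 ± 0.10 (SE, unadjusted p = 0.0166, adjusted p = 0.727), and 0.12 without DRD2 chronic LDOPA replicate 4, 0.42 without replicate 1 of that group and 0.83 with normexp background correction. The GRM7 probe detected on all arrays (7160605) differed by -0.10 (95% interval -0.92 to 0.71).

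CACNG3 at probe 2850066 had 7.66, 8.43, 8.62 and 9.07 after acute and 7.51, 7.56 and 7.90 after chronic LDOPA. The difference was -0.79 ± 0.32 (SE, 95% interval -1.47 to -0.11, unadjusted p = 0.0246, adjusted p = 0.738), but it was -1.49 on one BeadChip and 0.24 on the other. With the BeadChip block it was -0.61 (unadjusted p = 0.131). Probe 6980228 differed by -0.03 (95% interval -1.07 to 1.00). GRM5 at probe 7380440 had 10.52, 11.07, 11.09 and 11.35 and 10.03, 10.67 and 10.77. The difference was -0.51 ± 0.22 (SE, 95% interval -0.98 to -0.05, unadjusted p = 0.0312, adjusted p = 0.74), -0.28 without array 1A and -0.42 with the BeadChip block (unadjusted p = 0.124). CACNG7 had 7.38, 7.58, 7.83 and 8.44 and 7.20, 7.41 and 7.48, a difference of -0.44 ± 0.17 (SE, 95% interval -0.80 to -0.09, unadjusted p = 0.0165, adjusted p = 0.727) that was near -0.10 on both BeadChips and -0.23 without DRD2 acute LDOPA replicate 1 (array 2C), the highest sample.

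Whether chronic LDOPA acted differently on the lines was tested as an interaction, the DRD1A change minus the DRD2 change. It called 0 of 83 members and 0% of all probes, and 4 members (4.82%, against 5.57% of all probes) had an unadjusted p under 0.05, or 2 without DRD2 acute LDOPA replicate 4. GRIN1 at probe 4570161 was farthest from 0. Its change was -0.39 in DRD1A and 0.96 in DRD2, and the interaction was -1.35 ± 0.39 (SE, 95% interval -2.17 to -0.52, unadjusted p = 0.00286, adjusted p = 0.811). With the BeadChip as a fixed block the interaction was -2.05 (unadjusted p = 7.93e-05, adjusted p = 0.434). For DLG2 the changes were 0.48 and -0.43 and the interaction 0.91 ± 0.40 (SE, 95% interval 0.08 to 1.74, unadjusted p = 0.0327, adjusted p = 0.883), or 0.63 with the BeadChip block (unadjusted p = 0.226). GRM7 (probe 2690343) was also among the 4, at -0.33 (95% interval -0.59 to -0.07), or -0.19 without DRD2 chronic LDOPA replicate 4. For GRM3 the interaction was -0.88 ± 0.46 (SE, 95% interval -1.84 to 0.08, unadjusted p = 0.0709, adjusted p = 0.888), with changes of 0.42 and 1.30. Those of GRM5 (probe 7380440) were -0.32 and -0.51, with an interaction of 0.19 (95% interval -0.36 to 0.75).

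Genes with several probes showed how far a gene-level value can be trusted. In GRIA3, GRM5, GRIN1, GRM7 and DLGAP4 the probes disagreed in sign in at least 1 comparison in which a probe had an unadjusted p under 0.05. In DRD1A the 4 GRIA3 probes differed between chronic and acute LDOPA by 0.37, 0.02, -0.14 and -0.16, and the 5 DLGAP4 probes by 0.48, 0.20, 0.06, -0.17 and -0.21. By contrast the 4 GRIA1 probes and the 3 GRM5 probes all had negative estimates in DRD1A after chronic LDOPA, although with median centering a probe of each turned positive. Probes of a gene may read different transcripts, and which they read was not tested.

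**Figure D5:**
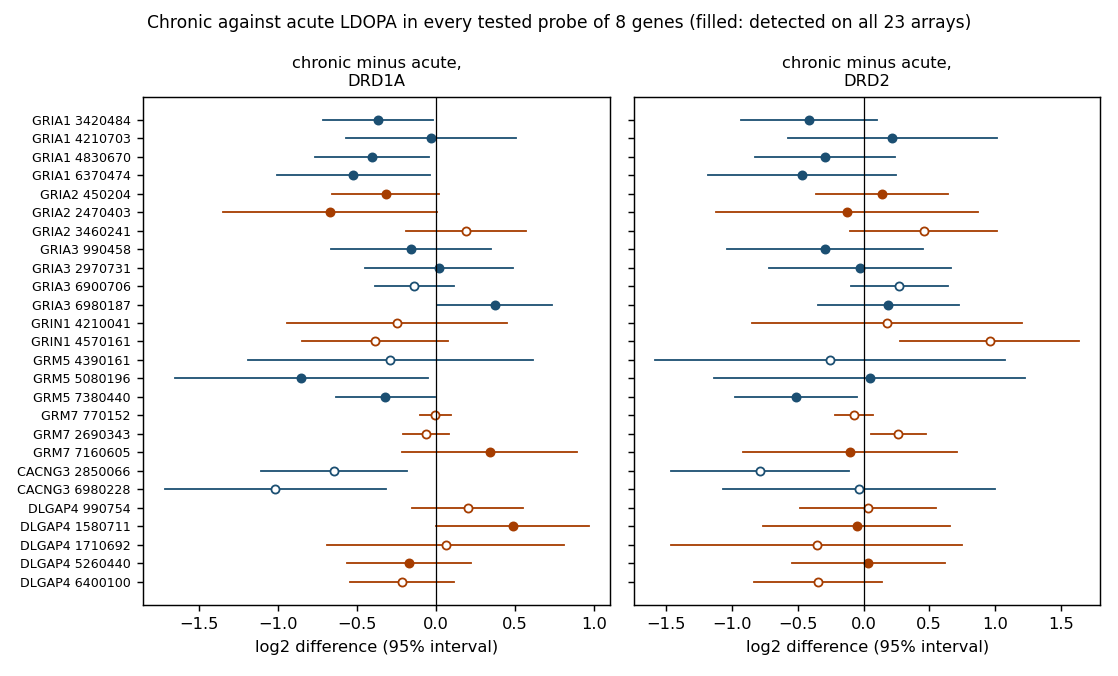
Log2 difference, chronic minus acute LDOPA, with its 95% interval (x axis) for each of the 26 tested probes of 8 member genes (y axis) in DRD1A and DRD2 (panels). Colours alternate by gene and filled points are probes detected on all 23 arrays. All GRIA1, GRM5 and CACNG3 points lie left of 0 in DRD1A, while GRIA3 and DLGAP4 points lie on both sides. With median centering 1 GRIA1 point and 1 GRM5 point moved to the right of 0.

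Other proteins of the postsynaptic density and of glutamate handling were read from a list of 43 partners (kinases, adhesion molecules, adaptors) and of 8 genes of release and uptake. Of the 40 partners on the array 39 were tested and 0 passed in any comparison. At an unadjusted p under 0.05 the acute contrast of lines had 3 higher and 2 lower in DRD1A, among them ARC, an immediate early gene that drives AMPA receptor endocytosis, at 1.72 (adjusted p = 0.128), and NETO2, a kainate receptor auxiliary subunit, at -1.09 (adjusted p = 0.335). After chronic LDOPA the contrast of lines had 2 higher and 1 lower in DRD1A. Among them were LIN7B at 0.55 (adjusted p = 0.312) and PTK2B at -0.77 (adjusted p = 0.67). Of all probes 9.11% and 6.14% reached that p in the line contrasts after acute and chronic LDOPA. In DRD1A chronic against acute LDOPA gave 2 higher and 0 lower, and in DRD2 1 higher and 2 lower, against 7.8% and 6.28% of all probes in either direction. The single higher one in DRD2 was NLGN1, a neuroligin of excitatory synapses, at 0.90 (adjusted p = 0.66). All 8 release and uptake genes were tested and 0 passed. SLC1A2, the main astrocytic glutamate transporter, was 1.00 higher in DRD1A than in DRD2 after acute LDOPA (adjusted p = 0.389) and differed by -0.95 between chronic and acute LDOPA in DRD1A (adjusted p = 0.394).

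Promoter sequence is shown as context for 2 of the genes with estimates over 1 log2 unit in size, GRIN1 and GRM3. The motif counts describe these 2 windows alone. Of the 46 member genes 32 had a window in the RefSeq table for GRCm38.p6, from 250 bases before to 50 after the start of the gene. Capitals mark TGACG, the core of the cAMP response element through which dopamine receptor signalling can reach genes, and GGGCGG, the GC box, on either strand (CGTCA and CCGCCC on the other strand). The 2 motifs did not overlap each other in these windows.
GRIN1, chr2:25319138-25319437, minus strand: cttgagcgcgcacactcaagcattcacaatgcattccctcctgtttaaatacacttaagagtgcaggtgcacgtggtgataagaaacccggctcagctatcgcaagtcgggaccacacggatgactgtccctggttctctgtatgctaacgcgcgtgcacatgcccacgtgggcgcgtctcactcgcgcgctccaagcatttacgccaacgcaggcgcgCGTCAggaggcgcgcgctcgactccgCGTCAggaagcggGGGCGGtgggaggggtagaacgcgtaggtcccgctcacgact
GRM3, chr5:9725303-9725602, minus strand: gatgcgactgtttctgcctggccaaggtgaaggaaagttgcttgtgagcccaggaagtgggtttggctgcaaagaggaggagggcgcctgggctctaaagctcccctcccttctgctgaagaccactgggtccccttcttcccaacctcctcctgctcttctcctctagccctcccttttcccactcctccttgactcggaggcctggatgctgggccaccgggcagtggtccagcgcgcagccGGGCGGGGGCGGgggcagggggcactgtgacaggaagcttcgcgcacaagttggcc
The GRIN1 window held 2 matches of TGACG and 1 of GGGCGG and that of GRM3 held 0 and 2. Of all 32851 windows of this length 20.8% held TGACG and 35.7% GGGCGG. A match is a string of letters and no evidence of binding.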

How the data were processed

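RNA of tagged ribosomes from striatum was amplified and hybridized to 23 Illumina MouseWG-6 v2 arrays, 1 for each sample of the labels. The authors scanned the arrays and exported mean bead intensities per probe with GenomeStudio 2010.2, without background subtraction or normalization. The deposited table also holds a detection p-value per probe, set against negative control beads, the count of beads behind each value and the standard error of the bead signal, which was not used. Its 4 columns of 1 array that no listed sample names were not used. The authors also deposited quantile normalized log2 values, in which 97 of 97 member probes were matched by their profile over the arrays and which served as an alternative.

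Intensities were quantile normalized, floored at 1 and put on the log2 scale. Probes above the 20th percentile on every array of at least 1 of the 4 groups were kept (32255 of 45281, 71.2%). Arrays 1D and 3A were averaged because their correlation exceeded that of all other pairs (whether they are of 1 mouse or 1 RNA is not given in the sources used here), and the analysis plan had named the same pair by another numbering of the BeadChips, as 1D and 4A. The 22 samples were fitted with limma 3.58.1 in R 4.3.3 with a mean per group (18 residual degrees of freedom, 19.4 after moderation), 4 pairwise contrasts, an F test over the groups and the interaction. P-values were adjusted by Benjamini-Hochberg over all 32255 probes, and 0.05 was the threshold. The fit was also run on simulated data with independent normal noise. These had no BeadChip effect and no background floor, so that run does not bear on those limits. The methods count animals and the labels name samples only, so p-values measure the spread between these samples. Groups were taken from the labels, which call the treatments acute and chronic, and the methods give other sizes for 2 of them. The number of arrays limits the precision. The arrays had a median of 42 to 44 beads per probe and at least 16 for a member.

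BeadChip effects were examined with the BeadChip as a fixed or random block and within BeadChips. Members were chosen by gene name, and the members and gene lists were chosen with earlier results of these data known. Values are given for up to 4 probes in each direction per comparison at an unadjusted p under 0.05, for genes whose probes disagree in sign and for the brightest tested probe of 13 genes known as main forms in striatal neurons, with others at that p added. Alternatives were median centering, normexp background correction, the authors' log2 table, other filters, all 23 arrays as samples, the methods' analysis of variance with Tukey's test, and leaving out each array. Promoter windows came from RefSeq. Some members and a promoter window are not reported here and are left out of the plots by family, while counts over all members include them.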

Additional observations from a re-analysis of the deposited data

Results flagged for a closer look

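Dixon's test marked a sample far from the others of its group in 6 of 72 groups of 24 named probes, and chance marks about 1 in 20. In DRD2 acute LDOPA, GRIA3 (probe 6980187) was at 10.997 on array 3F, with the nearest sample at 10.47, GRM3 (460725) at 8.271 on array 2C, with the nearest at 7.319, and GRIN1 (4210041) at 8.764 on array 2F, with the nearest at 7.114. In DRD1A chronic LDOPA, GRIA1 (4210703) was at 9.432 on array 4D, with the nearest at 10.406, and SHANK3 (1230598) at 9.502 on array 4C, with the nearest at 7.963. In DRD1A acute LDOPA, CACNG8 (3290504) was at 8.101 on array 2D, with the nearest at 7.546. The cause was not tested.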

How the results depend on the processing

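No paired analysis was made, as each mouse belonged to a single line and treatment and the labels name no pairs of arrays. The 21 differences that the naming rule took from the 4 pairwise comparisons kept their sign under the alternatives. GRM5 (probe 7380440) in DRD1A, outside those 21, turned from -0.32 to 0.11 with median centering. Normexp made 14 of the 21 more than 1.5 times larger, and with a fixed BeadChip block 7 no longer had an unadjusted p under 0.05 (2, 1, 2 and 2 in the line contrasts after acute and chronic LDOPA and the treatment contrasts in DRD1A and DRD2). Under the alternatives 1 member was called: GRIA3 (probe 6980187) in DRD1A, chronic against acute LDOPA, at 0.81 with median centering, which called 1 member there and 1 in the F test. Counts over all probes were 95 for the F test, 51 and 9 for the lines after acute and chronic LDOPA, 11 and 1 for treatment in DRD1A and DRD2, and 0 for the interaction. Median centering gave 364 for the F test, 7 and 31 for the lines and 247 for treatment in DRD1A. Normexp gave 14 for the lines after chronic LDOPA. Keeping only detected probes gave 175, 89, 16, 22 and 3 for the F test, the 2 line and the 2 treatment contrasts, with 2 members at an unadjusted p under 0.05 in the interaction. No filter gave 5 for treatment in DRD1A. A fixed BeadChip block gave 55 for the F test, 14 for the lines after acute LDOPA and 0 for treatment in DRD2. Without BeadChip 1 the F test had 33, the lines after acute LDOPA 17 and treatment in DRD1A 0, with 3 members at that unadjusted p in DRD2. All 23 arrays as samples gave 205 for the F test, 49 for the lines after chronic LDOPA, with 10 members at that p, and 2 for treatment in DRD2. The methods' analysis of variance and Tukey test gave 37, 30, 27 and 9 for the F test, both line contrasts and treatment in DRD2. With the brightest probe of each gene, chosen after seeing the data, the members at that p were 3 for the lines after chronic LDOPA, 6 and 3 for treatment in DRD1A and DRD2 and 1 for the interaction. These counts are of at most 39 probes in place of 83. The causes were not tested.

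Leaving out each array gave 39 (without DRD2 acute LDOPA replicate 2) to 132 (without DRD2 chronic LDOPA replicate 4) calls for the F test, 22 to 93 for the lines after acute LDOPA (without DRD2 acute LDOPA replicates 2 and 1), 8 to 44 after chronic LDOPA, 1 to 18 for treatment in DRD1A (without DRD1A chronic LDOPA replicate 4 and DRD2 chronic LDOPA replicate 4), 0 to 13 in DRD2 and 0 to 7 for the interaction. Members called stayed at 0. Members at an unadjusted p under 0.05 numbered 3 to 9 and 6 to 8 for the lines, 5 to 15 and 5 to 9 for treatment and 2 to 5 for the interaction. Leaving out array 1D or 3A left the other as a single sample, and DRD2 chronic LDOPA then still had 3.

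Signal over background limits the NMDA and most kainate and CACNG probes, which were seldom detected, so that absence of a difference there is not shown. With 3 and 4 samples the DRD2 comparison was the least precise of the treatment contrasts. Median centering turned the balance of direction for treatment in DRD1A, and in DRD2 that of the 26 members detected on all arrays but not that of the 83 tested, while the line contrast of AMPA probes kept its direction. BeadChip 1 held 4 of 7 DRD1A acute and 2 of 4 DRD2 chronic arrays and no DRD1A chronic or DRD2 acute arrays, so part of each treatment and each line contrast cannot be told apart from it.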
